A study of Homo sapiens with 12 samples.

Results

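The 3 cyclin D genes and 5 CDK inhibitor genes were followed through the removal of SPT6 or PAF1 from DLD-1 cells. They were taken by name (CCND1, CCND2, CCND3, CDKN1B, CDKN1C, CDKN2B, CDKN2C and CDKN2D) and are 8 of the 60666 human genes in the count table. All 8 passed the filter on low counts, which left 20791 genes for testing.

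Cyclins D are the subunits that switch on the kinases CDK4 and CDK6 when a cell is told to grow, and the active kinases phosphorylate the retinoblastoma protein so that E2F factors can turn on the genes of DNA replication. INK4 proteins (CDKN2B, CDKN2C and CDKN2D here) bind CDK4 and CDK6 directly and keep cyclins D off them. CIP/KIP proteins (CDKN1B and CDKN1C here) bind cyclin and kinase together and mainly block CDK2. In colorectal cancer cells CCND1 is known as a gene that responds to mitogens and to WNT signalling.

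DLD-1 is a human colorectal adenocarcinoma line, and all cells used here express OsTIR1 constitutively, a plant receptor that sends proteins carrying an auxin-inducible degron (AID) to the proteasome once auxin is present. In cells of the genotype SPT6-AID OsTIR1 the degron is on SPT6, which moves with elongating RNA polymerase II and rebuilds nucleosomes behind it, and in PAF1-AID OsTIR1 cells it is on PAF1, a core subunit of the PAF1 elongation complex. Each line was sampled after 0, 2 and 6 h in 500 µM auxin, with 2 libraries of poly(A) RNA at each time, so there were 12 libraries in 6 groups. SPT6-AID libraries carry the replicate numbers 1 and 2, and PAF1-AID libraries 3 and 4. Nothing in the labels ties the replicates to separate cultures or says whether a line is 1 clone, so each p-value reflects a variation among libraries that could be technical. Untagged cells given auxin were not among the samples, so depletion and any effect of auxin itself cannot be told apart. The degron acts on protein, which these files do not measure, so removal below stands for time in auxin.

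The libraries held between 31957953 and 115904780 counts, of which 3.94% to 6.25% fell on fly genes. Levels are given as CPM, human counts brought to a common library size by TMM scaling, which holds the typical gene level between libraries. Changes are log2 fold changes ± standard error from a single edgeR quasi-likelihood fit of all 12 libraries, and a gene is said to have risen or fallen only where its p-value, adjusted over all 20791 genes, was under 0.05. When fly counts set the scale instead, the median gene moved to -0.39 in SPT6-AID and -0.37 in PAF1-AID cells at 6 h on the log2 scale, against 0.04 and 0.02 with TMM, so every change below is relative to the other human genes. Most epithelial markers were abundant, with EPCAM at a mean of 820 to 982 CPM in the 6 groups. The 10 markers of the list summed to 3770 to 6700 CPM, although VIL1 had at most 11 and LGALS4 at most 35 counts in a library. Of the 5 fibroblast markers COL1A2 and LUM had 0 counts in all libraries, and the list summed to 0.601 to 3.33 CPM. The 5 blood markers summed to 8.23 to 25.4 CPM at 0 h and 12.4 to 41.3 CPM at 6 h in SPT6-AID cells, and to 21.8 to 24.8 and 29.2 to 30.2 CPM in PAF1-AID cells, mostly HBB, while PTPRC had at most 11 and CD3E at most 1 count in a library. The 3 endothelial markers summed to 0.392 to 1.25 CPM at 0 h and 2.03 to 2.35 CPM at 6 h in SPT6-AID cells, where PECAM1 rose to 21 and 35 counts, and CDH5 had at most 1 count in any library. The part of these markers in the members' changes was not tested.

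The 8 transcripts covered a wide range of abundance before auxin. Per kb of transcript, the SPT6-AID means at 0 h fell in the order CCND1 (166 ± 7.78 CPM per kb, SD, n = 2), CDKN1B (35 ± 3.18), CCND3 (13.9 ± 2.26), CDKN2D (6.47 ± 0.707), CDKN2C (4.14 ± 0.269), CDKN1C (1.9 ± 0.87), CDKN2B (0.601 ± 0.0226) and CCND2 (0.323 ± 0.0424). PAF1-AID cells gave the same order, from 180 ± 14.1 CPM per kb for CCND1 to 0.0688 ± 0.00431 for CCND2. No libraries of neighbouring genes in these orders overlapped, and the order was not tested. CCND1 alone made up 90.2% to 94.8% of the summed cyclin D level per kb in the 12 libraries. It lay at the 99.6th percentile of all tested genes by mean log2 CPM, and CCND2 at the 27.9th.

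**Figure D1:**
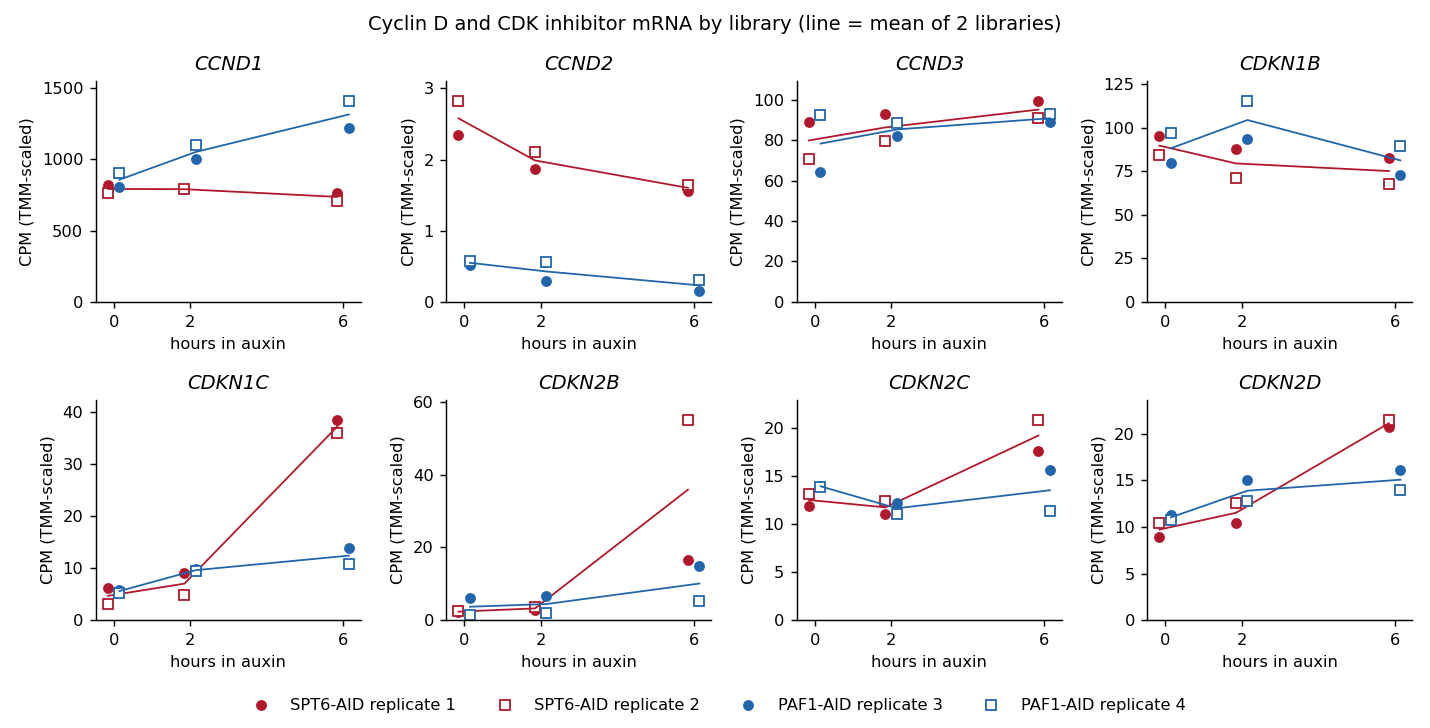
CPM (TMM-scaled, linear axis from 0) of each of the 8 genes in every library against hours in auxin, SPT6-AID in red and PAF1-AID in blue, with a symbol for each replicate and lines through the means of 2 libraries. CDKN1C, CDKN2B, CDKN2C and CDKN2D were higher in both SPT6-AID libraries at 6 h than in any other library, and CCND1 was highest in the PAF1-AID libraries at 6 h (1220 and 1407 CPM).

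After 6 h without SPT6, 4 of the 5 CDK inhibitor genes rose and no cyclin D gene passed the test. The risers were CDKN1C, CDKN2B, CDKN2C and CDKN2D, by 0.62 to 3.89 on the log2 scale, and 8.76% of all tested genes rose in that comparison. The 8 genes had a median change of 0.43, against 0.04 over all genes, and ran from -0.69 to 3.89. With fly counts as the scale CDKN1C, CDKN2B and CDKN2D rose, CDKN2C did not pass, and CCND1 and CCND2 fell. The shares of all genes that rose or fell on the fly scale are not given, so these calls have no background beside them. The median gene was itself at -0.39 on that scale. After 6 h without PAF1 the gene that rose was CCND1, 1 of the 8, where 4.2% of all tested genes rose, and the median was 0.33, against 0.02 over all genes. From 2 to 6 h without SPT6 the same 4 inhibitor genes rose, where 5.32% of all genes did. At 2 h no member passed in SPT6-AID or in PAF1-AID cells, where 0.548% and 0.149% of all genes passed in either direction. By an unadjusted p under 0.05 the 2 h counts were 0 and 2 members, against 1542 and 1537 of 20791 genes. DESeq2's Wald test also called 0 members in both lines, against 509 of 15954 and 270 of 17566 genes.

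**Figure D2:**
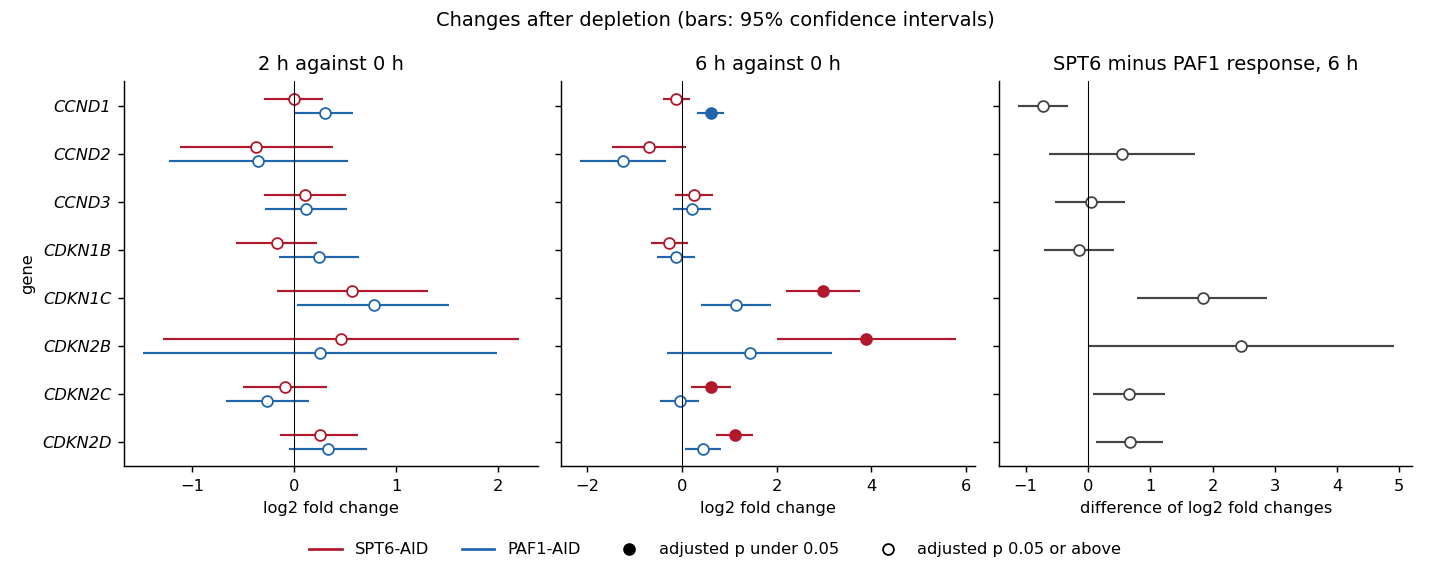
Log2 fold change of each gene at 2 h and at 6 h against 0 h in SPT6-AID (red) and PAF1-AID cells (blue), and the difference between the 2 responses at 6 h (grey), with bars for 95% confidence intervals and filled circles for an adjusted p under 0.05. Filled circles are CDKN1C, CDKN2B, CDKN2C and CDKN2D in SPT6-AID and CCND1 in PAF1-AID cells, all at 6 h, and the differences have no filled circle.

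CCND1 encodes cyclin D1 (ENSG00000110092, GRCh38 chromosome 11, 69641087 to 69654474, plus strand). In PAF1-AID replicates 3 and 4 it was at 808 and 904 CPM at 0 h, 1003 and 1099 CPM at 2 h, and 1220 and 1407 CPM at 6 h. Both libraries at 6 h lay above the 4 earlier ones, and each replicate was higher at 2 h than at 0 h. Neither held with fly counts as the scale. Replicate 3 was then at 1060, 1030 and 1080 CPM at 0, 2 and 6 h, and replicate 4 at 986, 1120 and 1330 CPM. The gene rose by 0.62 ± 0.13 at 6 h, which is 1.53-fold (edgeR adjusted p = 0.0146), and the 2 h value was 0.30 ± 0.13 (edgeR adjusted p = 0.648). The call was lost when fly counts set the scale (0.24, edgeR adjusted p = 0.355), and without PAF1-AID 0h replicate 3 (0.54, 0.0852), 6h replicate 3 (0.73, 0.0531) or 6h replicate 4 (0.50, 0.106). Bulk counts cannot tell apart fewer cells carrying a transcript and less of it per cell, here and in all that follows.

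In SPT6-AID replicates 1 and 2 CCND1 was at 818 and 765 CPM at 0 h, 789.9 and 789.8 CPM at 2 h, and 765 and 707 CPM at 6 h. The lowest library at 0 h and the highest at 6 h nearly met, and the 6 h value of -0.11 had a 95% confidence interval of -0.39 to 0.18 (edgeR adjusted p = 0.597). With fly counts as the scale it passed as lower (-0.53, edgeR adjusted p = 0.0313). The SPT6 response minus the PAF1 response at 6 h was -0.72 (interval -1.13 to -0.32) and missed the threshold (edgeR adjusted p = 0.0587), which it passed by DESeq2's Wald test (-0.69, 0.00982). The last 1399 bases of CCND1 overlap LTO1, a gene on the other strand, whose counts were 0.658% to 2.39% of those of CCND1.

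CCND2, cyclin D2 (ENSG00000118971, chromosome 12, 4273772 to 4305350, plus strand), was scarce in both lines. SPT6-AID libraries gave 131 and 151 counts at 0 h, 87 and 226 at 2 h and 72 and 47 at 6 h, or 2.34 and 2.82, 1.86 and 2.11, and 1.57 and 1.64 CPM. PAF1-AID libraries gave 23 and 25 counts at 0 h, 12 and 27 at 2 h and 9 and 18 at 6 h, or 0.525 and 0.573, 0.289 and 0.566, and 0.156 and 0.309 CPM. Within each line both libraries at 6 h were below both at 0 h. The changes of -0.69 ± 0.35 in SPT6-AID and -1.23 ± 0.41 in PAF1-AID cells missed the threshold (edgeR adjusted p = 0.184 and 0.0827), but passed as lower with fly counts as the scale (-1.12 and -1.60, edgeR adjusted p = 0.0419 and 0.0331). CCND2-AS1 on the other strand and AC008012.1 on the same strand overlap CCND2, and each had at most 2 counts in a library.

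Before auxin the 2 lines could be set against each other, and no member passed, where 0.0337% of all genes did (7 of 20791). By an unadjusted p under 0.05, met by 1372 of 20791 genes, there was 1 member, and DESeq2's Wald test called 1 (87 of 16357 genes). That gene was CCND2, 4.68-fold lower in PAF1-AID than in SPT6-AID cells, at -2.23 ± 0.37 (edgeR adjusted p = 0.125), with no overlap between the lines at any time.

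CCND3, cyclin D3 (ENSG00000112576, chromosome 6, 41934933 to 42050357, minus strand), is the longest of the genes at 115 kb. It was at 89.2 and 70.7 CPM at 0 h and at 99.4 and 91.0 CPM at 6 h in SPT6-AID cells, and at 64.2 and 92.6 CPM and then 89.0 and 92.9 CPM in PAF1-AID cells. The PAF1-AID groups overlapped. The 6 h values of 0.25 (interval -0.15 to 0.65) and 0.21 (-0.18 to 0.61) did not pass, and both changed sign with fly counts as the scale (-0.18 and -0.15). RNU6-761P, within CCND3, had at most 1 count in a library.

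Summed per kb, the cyclin D transcripts went from 181 and 206 CPM per kb at 0 h to 272 and 312 at 6 h in PAF1-AID cells, where CCND1 carried nearly all of the sum. In SPT6-AID cells the 6 libraries stayed between 164 and 188 CPM per kb. This sum was not tested, and the CCND1 rise in PAF1-AID cells did not pass with fly counts as the scale.

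CDKN1B, which encodes p27 (ENSG00000111276, chromosome 12, 12715058 to 12722371, plus strand), was the most abundant inhibitor transcript of the set. CDKN1A, a CIP/KIP gene outside the set, was above it in SPT6-AID cells at 6 h (means of 106 and 75.1 CPM). CDKN1B was at 95.3 and 84.0 CPM at 0 h, 87.6 and 71.4 CPM at 2 h and 82.7 and 67.5 CPM at 6 h in SPT6-AID cells. In PAF1-AID cells it was at 79.6 and 96.8 CPM, 93.5 and 115 CPM, and 72.7 and 89.7 CPM. Replicate 1 exceeded replicate 2, and replicate 4 exceeded replicate 3, at every time. The 6 h values of -0.26 (interval -0.65 to 0.14) and -0.12 (-0.52 to 0.28) did not pass (edgeR adjusted p = 0.341 and 0.742). That fit has no block for the replicate number. AC008115.3, which overlaps CDKN1B on the same strand, had 16 to 70 counts in a library, 0.306% to 1.92% of those of CDKN1B.

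CDKN1C, which encodes p57 (ENSG00000129757, chromosome 11, 2883213 to 2885773, minus strand), lies in an imprinted cluster. SPT6-AID libraries had 6.25 and 3.20 CPM at 0 h, 9.21 and 4.93 CPM at 2 h and 38.6 and 36.0 CPM at 6 h. Both libraries at 6 h stood above all 10 others. The gene rose by 2.98 ± 0.35 at 6 h, which is 7.89-fold (edgeR adjusted p = 0.000343), and by 2.41 ± 0.34 from 2 to 6 h (0.00201). At 2 h the value was 0.57 ± 0.33 (edgeR adjusted p = 0.949). The 6 h call held in all 12 fits that left out a library and in the 8 other settings.

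In PAF1-AID libraries CDKN1C was at 5.93 and 5.34 CPM at 0 h, 9.87 and 9.46 CPM at 2 h and 14.0 and 10.9 CPM at 6 h, and the 3 groups did not overlap. The 6 h level was 2.21-fold that at 0 h, with a log2 interval of 0.40 to 1.89, and came short of the threshold (edgeR adjusted p = 0.0547). Without any block, it passed with no filter on low counts (edgeR adjusted p = 0.000277), in a fit of the PAF1-AID libraries alone (edgeR adjusted p = 0.0128), by DESeq2's Wald test (0.00664), and without SPT6-AID 0h replicate 1 (0.0306), 0h replicate 2 (0.0305), 2h replicate 1 (0.0345) or 2h replicate 2 (0.0341), while the other 8 fits without a library gave 0.0671 to 0.265. The response to SPT6 removal exceeded that to PAF1 removal by 1.84 (interval 0.79 to 2.88), without passing (edgeR adjusted p = 0.0624, but 0.00237 by DESeq2, 5.51e-05 with no filter on low counts, and 0.0444 to 0.0478 without SPT6-AID 0h replicate 1, 2h replicate 1 or 2h replicate 2). KCNQ1OT1, the long non-coding RNA of the same imprinted cluster, rose in SPT6-AID cells (1.49 ± 0.26, edgeR adjusted p = 0.00244) and in PAF1-AID cells (2.00 ± 0.27, 0.00242).

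CDKN1C took a growing part of the 2 CIP/KIP transcripts of the set, which leave out CDKN1A. Per kb it was 6.35% and 3.79% of their sum at 0 h in SPT6-AID cells and 32.6% and 35.6% at 6 h. In PAF1-AID cells it went from 7.16% and 5.4% before auxin to 16.6% and 11.2% after 6 h. CDKN1B remained the larger in all 12 libraries.

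The INK4 genes CDKN2B, CDKN2C and CDKN2D rose together after SPT6 removal, and the reference sequence before their starts is shown here so that the reader can see what these co-moving genes have and lack in common, with CCND3, which did not pass, for contrast. RefSeq (GRCh38.p14) gave promoters for 5 of the 8 genes. The letters run 5′ to 3′ on the gene's strand and stop where exon sequence begins. Capitals mark motifs found on either strand, namely the letters GGGCGG of a GC box, which read as CCGCCC on the reverse strand, the letters CCAAT of a CCAAT box, the letters CACGTG of an E-box and the letters TGACGT of a cAMP response core.
CDKN2B, chr9:22009364-22009555, minus strand: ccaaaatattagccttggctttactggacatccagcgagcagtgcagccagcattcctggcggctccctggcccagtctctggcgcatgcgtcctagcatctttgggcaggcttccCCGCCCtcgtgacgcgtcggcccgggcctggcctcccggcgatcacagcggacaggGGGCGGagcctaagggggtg
CDKN2D, chr19:10569060-10569229, minus strand: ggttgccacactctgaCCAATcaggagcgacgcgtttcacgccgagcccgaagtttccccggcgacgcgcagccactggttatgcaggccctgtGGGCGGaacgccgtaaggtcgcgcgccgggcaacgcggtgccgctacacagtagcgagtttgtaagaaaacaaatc
CDKN2C, start 1 of 3, chr1:50960495-50960744, plus strand: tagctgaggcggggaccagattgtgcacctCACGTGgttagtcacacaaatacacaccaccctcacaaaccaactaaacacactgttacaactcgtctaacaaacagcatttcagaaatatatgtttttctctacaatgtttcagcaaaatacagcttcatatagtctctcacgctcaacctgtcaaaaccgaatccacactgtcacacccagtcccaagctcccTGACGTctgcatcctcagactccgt
CCND3, start 2 of 3, chr6:41941849-41942058, minus strand: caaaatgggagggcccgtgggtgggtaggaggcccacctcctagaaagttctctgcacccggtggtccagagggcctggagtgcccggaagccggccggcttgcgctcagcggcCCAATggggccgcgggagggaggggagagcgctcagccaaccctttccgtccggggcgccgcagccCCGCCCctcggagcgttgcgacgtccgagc

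Each of the 3 INK4 genes had a GC box in the 250 bases before at least 1 of its starts. CDKN2B had 2 GC boxes, at -134 to -129 and -78 to -73, and CDKN2D had 2 GC boxes, at -156 to -151 and -44 to -39, with a CCAAT box at -234 to -230. The first CDKN2C start had neither, but an E-box at -220 to -215 and a cAMP response core at -25 to -20, while its second start had 5 GC boxes, of which a pair overlap, and start 3 held all 4 motifs, with a GC box at -54 to -49. The CCND3 stretch held a GC box and a CCAAT box as well, and CCND3 start 1 had 5 GC boxes. CDKN1B, which did not pass, had a GC box at -71 to -66 and CCAAT boxes at -174 to -170 and -50 to -46. A GC box was thus found in each of the 5 genes with a promoter, whether the gene rose or not. Of 35116 RefSeq windows of this length, 42.6% had a GC box, 32.0% a CCAAT box, 6.34% an E-box and 7.1% a cAMP response core on either strand. The letters TATAAA of a TATA box, TGANTCA of an AP-1 site, TTTNGCG of an E2F site, GTAAACA of a forkhead site and CTTTGAT of a TCF site were searched on both strands and did not occur in the windows of the 5 genes (10.7%, 6.57%, 4.32%, 2.98% and 2.26% of all windows hold them). A match describes letters, and says nothing of a bound factor.

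CDKN2B encodes p15 (ENSG00000147883, chromosome 9, 22002903 to 22009363, minus strand), an inhibitor known as a target of TGF-beta signalling. In SPT6-AID cells it was at 2.34 and 2.47 CPM at 0 h, 2.79 and 3.79 CPM at 2 h, and 16.6 and 55.1 CPM at 6 h (764 and 1577 counts). Both 6 h libraries were above all others, but differed from each other by more than in any other SPT6-AID group. The gene rose by 3.89 ± 0.85 at 6 h, or 14.9-fold (edgeR adjusted p = 0.00764), and by 3.44 ± 0.83 from 2 to 6 h (0.0193). The 6 h call was lost without SPT6-AID 0h replicate 1 (3.84, edgeR adjusted p = 0.0517), 0h replicate 2 (3.92, 0.0502) or 6h replicate 2 (2.79, 0.0524), and the call from 2 to 6 h without SPT6-AID 2h replicate 1 (3.22, 0.108), 2h replicate 2 (3.71, 0.0955) or 6h replicate 2 (2.33, 0.134).

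In PAF1-AID cells CDKN2B differed widely between the replicates at every time. Replicate 3 had 6.07, 6.81 and 15.0 CPM at 0, 2 and 6 h, and replicate 4 had 1.42, 2.16 and 5.18 CPM. Each replicate was highest at 6 h, but replicate 3 at 0 h exceeded replicate 4 at 6 h, so the groups overlapped. The 6 h value of 1.43 ± 0.78 did not pass (interval -0.31 to 3.17, edgeR adjusted p = 0.29), nor did the difference between the lines' responses (2.46, interval 0.01 to 4.91, 0.306). Both passed with no filter on low counts (1.42 and 2.44, edgeR adjusted p = 1.2e-05 and 1.26e-07). Over the 12 fits without a library they ran from 0.48 (without PAF1-AID 6h replicate 3) to 2.82 (without 0h replicate 3) and from 1.05 (without 0h replicate 3) to 3.44 (without 6h replicate 3), and passed in none of them. CDKN2B lies wholly within CDKN2B-AS1, a gene on the other strand, which had 18 to 63 counts per library, 1.33% to 32.3% of those of CDKN2B, and was at 0.84 ± 0.42 at 6 h in SPT6-AID cells (edgeR adjusted p = 0.18).

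CDKN2D, which encodes p19 of the INK4 class (ENSG00000129355, chromosome 19, 10566462 to 10569059, minus strand), had replicates close together. SPT6-AID libraries were at 8.98 and 10.5 CPM at 0 h, 10.4 and 12.6 CPM at 2 h and 20.7 and 21.5 CPM at 6 h. Both 6 h libraries stood above the 10 others, and the gene rose by 1.12 ± 0.17, or 2.17-fold (edgeR adjusted p = 0.00124). That call also held in all 12 fits without a library and in the 8 other settings. From 2 to 6 h the gene rose by 0.87 ± 0.17 (edgeR adjusted p = 0.0081), a call lost with fly counts as the scale (0.57, 0.0866) and without SPT6-AID 2h replicate 1 (0.73, 0.0751). PAF1-AID libraries were at 11.3 and 10.8 CPM, then 15.0 and 12.8 CPM, then 16.1 and 14.0 CPM, and the value of 0.45 ± 0.17 at 6 h did not pass (edgeR adjusted p = 0.131).

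CDKN2C, which encodes p18 (ENSG00000123080, chromosome 1, 50960745 to 50974633, plus strand), had the smallest rise of the 4. It was at 11.9 and 13.1 CPM at 0 h, 11.1 and 12.4 CPM at 2 h and 17.5 and 20.9 CPM at 6 h in SPT6-AID cells, and at 14.0 and 13.9, 12.2 and 11.1, and 15.7 and 11.4 CPM in PAF1-AID cells. Both SPT6-AID libraries at 6 h were the highest of the 12, while the PAF1-AID groups overlapped. The gene rose by 0.62 ± 0.19, or 1.53-fold (edgeR adjusted p = 0.0339), and by 0.71 ± 0.19 from 2 to 6 h (0.0278). The call at 6 h against 0 h was lost in 8 of the 12 fits without a library, with adjusted p-values of 0.179 without SPT6-AID 0h replicate 1, 0.101 without 0h replicate 2, 0.165 without 6h replicate 2, 0.0518 without 2h replicate 1, and 0.0509 to 0.0564 without PAF1-AID replicate 3 or 4 at 0 or 2 h. The value ran from 0.49 to 0.77 over the 12 fits. The call was also lost with fly counts as the scale (0.17, edgeR adjusted p = 0.57), no filter (0.59, 0.0841) and the line alone (0.63, 0.052). The call from 2 to 6 h was lost without SPT6-AID 2h replicate 1 (0.163), 2h replicate 2 (0.0907) or 6h replicate 2 (0.151), and with fly counts as the scale (0.212), no filter (0.0555) and the line alone (0.0558). The PAF1-AID value was -0.04 (interval -0.45 to 0.37).

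The summed INK4 level per kb was 10.5 and 11.9 CPM per kb at 0 h and 23.7 and 35.0 at 6 h in SPT6-AID cells. CDKN2B went from 5.57% and 5.17% of it to 17.5% and 39.4%. The ratio of summed cyclin D to summed INK4 transcripts went from 17.9 and 14.5 before auxin to 7.5 and 4.7 after 6 h in SPT6-AID cells, and from 13.2 and 17.0 to 13.8 and 21.7 in PAF1-AID cells. By 6 h after SPT6 removal the order per kb had closed up below CDKN1B: CCND3, CDKN1C and CDKN2D lay together at 16.6 ± 1.06, 15.0 ± 0.778 and 14.0 ± 0.354 CPM per kb, CDKN2B followed at 8.98 ± 6.82 with replicates reaching from 4.15 to 13.8, and CDKN2C at 6.36 ± 0.778 lay inside that range.

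**Figure D3:**
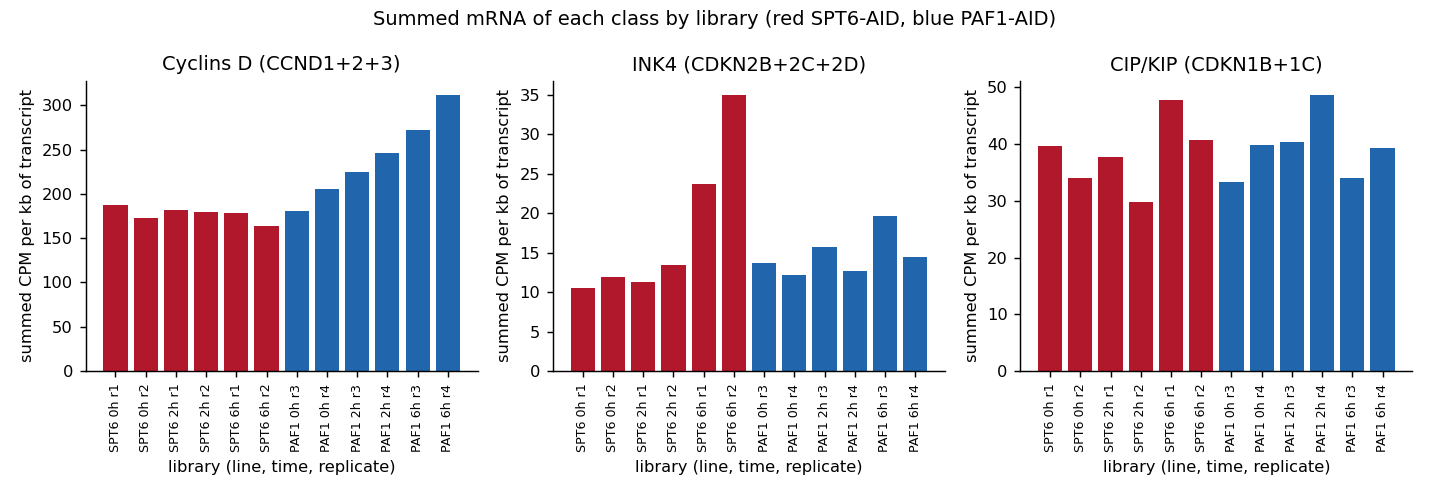
Bars from 0 show the summed CPM per kb of transcript for cyclins D (CCND1, CCND2, CCND3), INK4 (CDKN2B, CDKN2C, CDKN2D) and CIP/KIP genes (CDKN1B, CDKN1C) in each library, SPT6-AID in red and PAF1-AID in blue. The INK4 sum is highest in the SPT6-AID libraries at 6 h (23.7 and 35.0), and the cyclin D sum in the PAF1-AID libraries at 6 h (272 and 312).

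The lines' responses were compared directly at both times. At 2 h no member differed (-0.42 to 0.20), where 0.0337% of all genes did. By an unadjusted p under 0.05 and by DESeq2 the counts were also 0, against 526 of 20791 and 57 of 16357 genes. At 6 h no member passed, where 3.74% of all genes did. However, 5 members had an unadjusted p under 0.05, as did 3369 of 20791 genes. DESeq2's Wald test called 2 members and 1366 of 17163 genes. From 2 to 6 h in PAF1-AID cells no member passed (-0.88 to 1.18), where 0.875% of all genes did. There was 1 member at an unadjusted p under 0.05 (2881 of 20791 genes) and 0 by DESeq2 (884 of 17566 genes). In this fit, which has no block for the replicate number, a rise that passed in one line and not in the other is therefore not shown to differ between them.

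The partners of these genes fell more often after SPT6 removal than they rose. Among 10 G1 kinases, their activators and E and A cyclins, 0 rose and 4 fell at 6 h, where 16.4% of all genes fell: CDC25A, the phosphatase that activates CDK2 (-1.59), CCNE2, cyclin E2 (-1.54), CDK7, of the CDK-activating kinase (-1.22), and CCNA2, cyclin A2 (-1.15). Their median was -0.45, against 0.04 over all genes. CDK4 and CDK6, the kinases that cyclins D activate, were at 0.15 and -0.71 (edgeR adjusted p = 0.511 and 0.0602). With fly counts as the scale 6 of the 10 fell, CDK6 (-1.08, edgeR adjusted p = 0.034) and CCNH (-0.65, 0.011) besides these 4. The median gene was itself at -0.39 on that scale. The share of all genes that fell there is not given, so the fly-scaled counts of this list and those below have no background beside them. In PAF1-AID cells 1 of the 10 rose, CCNE1, cyclin E1 (0.81), and 1 fell, CCNE2 (-1.28), where 4.2% of all genes rose and 6.7% fell. The CCNE1 call was lost with fly counts as the scale (0.44, edgeR adjusted p = 0.195). The SPT6 response was the lower one for CCNA2 (by a difference of -1.25, edgeR adjusted p = 0.0289) and CDC25A (-1.71, 0.0321).

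Of 13 pocket proteins and E2F factors, 0 rose and 5 fell in SPT6-AID cells at 6 h. These were E2F6 (-1.78), E2F7 (-1.35), E2F4 (-1.12), RBL1, the pocket protein p107 (-0.93), and E2F5 (-0.82). Over all genes 8.76% rose and 16.4% fell in that comparison. E2F4, E2F5, E2F6 and E2F7 are known mainly as repressors, and RB1 itself was at 0.15 (edgeR adjusted p = 0.467). In PAF1-AID cells 3 fell, E2F5 (-1.08), E2F2 (-0.92) and RBL1 (-0.78), and 0 rose, where 6.7% of all genes fell and 4.2% rose. The medians were -0.37 and -0.10. E2F6 differed between the lines (-1.47, edgeR adjusted p = 0.0195). With fly counts as the scale 9 of the 13 fell in SPT6-AID and 4 in PAF1-AID cells, and 0 rose. The median of all genes was -0.39 and -0.37 on that scale.

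Ubiquitin ligase genes that control cyclins D or p27 went opposite ways in one case. AMBRA1, the receptor through which a cullin ligase destroys cyclins D, was at 42.6 and 46.1 CPM at 0 h and 29.6 and 25.1 CPM at 6 h in SPT6-AID cells, and at 34.2 and 40.5 CPM and then 61.4 and 58.6 CPM in PAF1-AID cells. The groups did not overlap in either line. It fell by 0.70 ± 0.14 in the first (edgeR adjusted p = 0.00541), rose by 0.68 ± 0.14 in the second (0.0138), and the difference was -1.38 ± 0.20 (0.0127), but with fly counts as the scale the PAF1-AID rise did not pass (0.31, 0.304). Of the 11 ligase genes 4 fell in SPT6-AID cells, FZR1, an activator of the anaphase-promoting complex (-1.59), CUL1, the scaffold of SCF ligases (-1.15), FBXO31 (-0.71) and AMBRA1, and 1 rose, SKP1 (0.47, or 0.02 with fly counts as the scale). Over all genes 16.4% fell and 8.76% rose there. In PAF1-AID cells AMBRA1 and UBAC1 (0.49, or 0.12 with fly counts as the scale) rose and 0 fell, where 4.2% of all genes rose and 6.7% fell. With fly counts as the scale 0 of the 11 rose in either line, while 6 fell in SPT6-AID and 2 in PAF1-AID cells. The median of all genes was -0.39 and -0.37 on that scale. SKP2, the receptor that targets p27, was at -0.26 and 0.16 (edgeR adjusted p = 0.115 and 0.413).

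**Figure D4:**
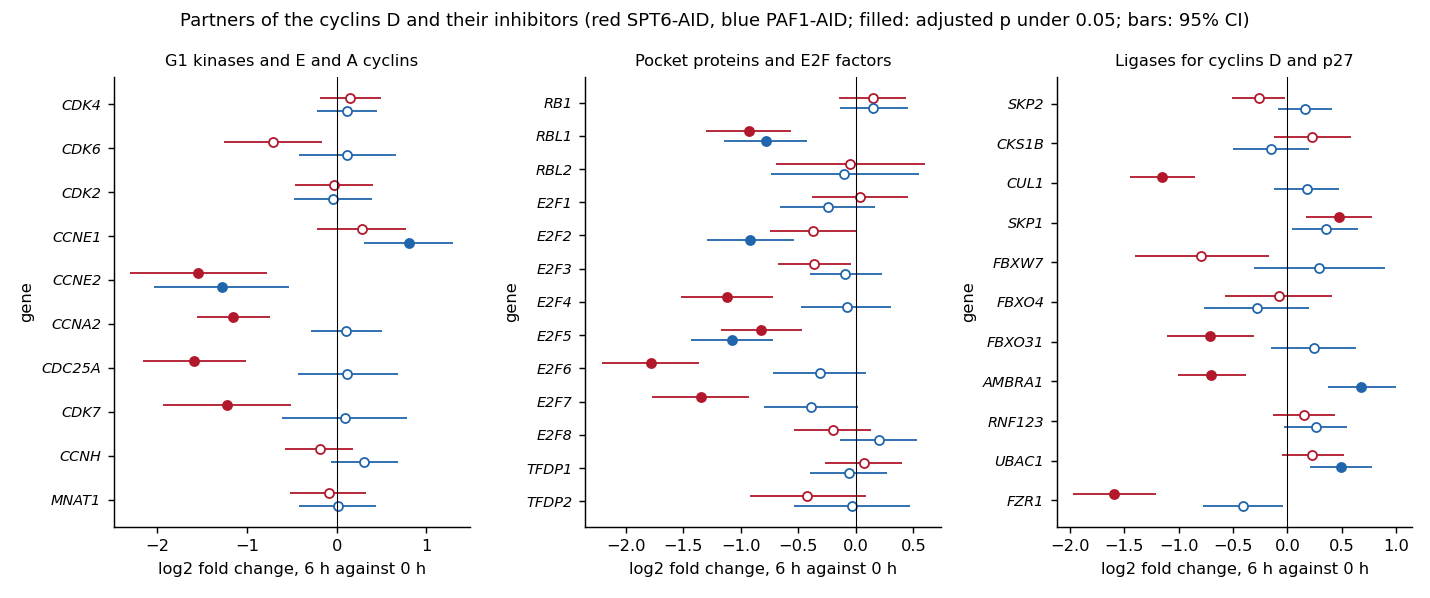
Log2 fold changes at 6 h against 0 h of the G1 kinases and cyclins, the pocket proteins and E2F factors, and the ligase genes, with 95% confidence intervals, SPT6-AID in red and PAF1-AID in blue, filled where the adjusted p was under 0.05. Most filled SPT6-AID circles lie left of 0, such as E2F6 at -1.78 and FZR1 at -1.59, while AMBRA1 has filled circles on both sides (-0.70 and 0.68).

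Among 15 genes that act upstream of the cyclin D and inhibitor genes, 0 rose and 5 fell after 6 h without SPT6, where 16.4% of all genes fell, and 9 fell with fly counts as the scale. The 5 were TCF7L2, the WNT effector of gut epithelium (-1.62), SMAD4 (-1.32), the receptor TGFBR2 (-1), the receptor TGFBR1 (-0.63) and MAX, the partner of MYC (-0.62). SMAD4 and the TGF-beta receptors are part of the pathway known to raise CDKN2B, and a link between their falls and its rise was not tested. In PAF1-AID cells 0 rose and 1 fell, TCF7L2 (-1.26), where 6.7% of all genes fell, and 2 fell with fly counts as the scale. The medians were -0.42 and 0.05. With fly counts as the scale the median of all genes was -0.39 and -0.37. CDKN1A, the third CIP/KIP gene, rose in both lines (1.78 ± 0.22 and 1.06 ± 0.22, edgeR adjusted p = 0.000429 and 0.0138), the PAF1-AID call being lost with fly counts as the scale (0.64, 0.114).

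Over the 12 libraries, the genes whose log2 CPM followed each changed member most closely were found among 13279 others. For CDKN2D they were C15orf62 (Pearson r = 0.956), CDKN1A (0.947) and ABCC2 (0.941). For CDKN1C they were AC007842.1 (0.969), POU6F1 (0.965) and JUNB (0.965), for CDKN2B WDFY3-AS2 (0.953), TP53INP2 (0.95) and TENT5C (0.944), and for CDKN2C TTC21A (0.937), NR4A2 (0.911) and NUCB2 (0.904). For CCND1 they were ZNF598 (0.982), NUDT4B (0.972) and H3-5 (0.966). Among the members CDKN2B and CDKN2D were the most alike (0.89), and CCND1 and CCND2 the most opposed (-0.82). The libraries share groups, lines and replicate numbers, so these values are descriptions of 12 points.

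The 4 inhibitor genes that rose are shorter than CCND2 and CCND3, and CDKN2B and CDKN2C are near CDKN1B and CCND1 in length, which did not rise without SPT6. CDKN1C and CDKN2D span 2.56 and 2.6 kb, CDKN2B 6.4 kb and CDKN2C 13.9 kb, against 115 kb for CCND3 and 35.6 kb for CCND2, while CDKN1B and CCND1 span 7.31 and 13.3 kb. After 6 h without SPT6, genes under 5 kb had a median change of 0.26 with 10.7% higher and 5.64% lower. Genes of 5 to 20 kb had a median of 0.11 with 11.4% higher and 15.5% lower. Genes of 20 to 100 kb had a median of -0.1 with 6.82% higher and 22.7% lower. Genes over 100 kb had a median of -0.19 with 4.86% higher and 25.3% lower. In PAF1-AID cells the medians of these classes at 6 h were 0.09, 0.02, -0.01 and -0.05. The part of length in the members' changes was not tested.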

How the data were processed

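Per the labels' protocols, sequencing used poly(A) RNA and a directional NEBNext kit. Cutadapt 1.14, STAR 2.7.5 and featureCounts 2.0.0 are named with the builds GRCh38 and BDGP6 in the submitters' processing notes. The deposited table holds the authors' whole-number counts per gene, not normalized, in 12 columns mapped to samples by name, with a gene length and a transcript length. The counting strand, the annotation release and how fly material was added are not given in the sources used here, so counts of genes that overlap on opposite strands are uncertain. Depth sets the counting precision, which is poorest for CCND2.

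The human genes kept by filterByExpr were scaled by TMM and fitted as 6 group means with edgeR 4.0.16 in R 4.3.3 (6 residual degrees of freedom). P-values were adjusted by the Benjamini-Hochberg method over 20791 genes, with a threshold of 0.05. Standard errors came from the F statistic and the log2 change. Levels per kb use the deposited transcript length. The alternatives were DESeq2 1.42.0 size factors and Wald test, total human counts, fly totals, no filter, a mean of at least 1 CPM, a line alone, a replicate block and each library left out. No group held the same library in duplicate (chi-square of replicate counts over its degrees of freedom 34.1 to 63.1).

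The 8 members, the gene lists and the tests were chosen with earlier results of these data known. All members are named, with up to 4 genes per list by smallest p at 6 h among those past the threshold, and the 3 genes most alike each changed member (mean log2 CPM of at least 1, prior count 2). CCNE1, CCNH, RBL1, E2F2, SKP1, UBAC1 and TGFBR1 were named after their values were seen, and CDK4, CDK6, RB1 and SKP2 for their roles. Positions are from GENCODE release 29, whose gene spans differ slightly from the deposited gene lengths for all 8 members. No outlier test fits groups of 2.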

Additional observations from a re-analysis of the deposited data

How the results depend on the processing

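The 45 results on single members followed here gave 891 values under the alternatives, of which 796 kept their direction and their side of the threshold. Of these 796, 493 came from fits that left out a library, which need not be a library of the comparison. The 45 are a part of all member results. They hold only the 4 risers for SPT6-AID 6 h against 2 h and only CCND2 at 0 h. PAF1-AID 6 h against 2 h and the difference at 2 h are not among them. The number of members called moved as follows. With fly totals as library sizes it was 2 for SPT6-AID 6 h against 2 h (4 in the main fit). With no filter it was 3 for PAF1-AID 6 h against 0 h (1), 1 for PAF1-AID 6 h against 2 h (0), 2 for the difference of responses at 6 h (0) and 1 between the lines at 0 h (0). Of the 38744 genes then tested, 663 passed for PAF1-AID 6 h against 2 h, 1330 for the difference at 6 h and 317 at 0 h. With a line alone the number of members was 2 for PAF1-AID 6 h against 0 h, and by DESeq2's Wald test 2 there, 2 for the difference at 6 h and 1 at 0 h. DESeq2 called 1366 of 17163 genes for the difference at 6 h and 87 of 16357 at 0 h. Leaving out each library gave 2 to 4 members for SPT6-AID 6 h against 0 h, 1 to 4 for 6 h against 2 h, 0 to 2 for PAF1-AID 6 h against 0 h and 0 to 1 for the difference at 6 h. The cause was not tested.

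With the replicate number as a replicate block the counts were 7 for SPT6-AID 6 h against 0 h (5 higher, 2 lower), 2 for PAF1-AID 2 h, 5 for PAF1-AID 6 h against 0 h, 3 for PAF1-AID 6 h against 2 h, 5 for the difference at 6 h and 3 at 0 h. The 5 were CDKN1C (1.9, edgeR adjusted p = 3.44e-05), CDKN2B (2.21, 0.000494), CDKN2C (0.67, 0.00675), CDKN2D (0.68, 0.00331) and CCND1 (-0.72, 1e-04), and CDKN1C passed in PAF1-AID cells at 6 h (7.34e-05). Over all 20791 genes the replicate block called 10683 in SPT6-AID and 7958 in PAF1-AID cells at 6 h against 5230 and 2267. It called 1452 for PAF1-AID at 2 h, 4172 for PAF1-AID 6 h against 2 h, 4513 for the difference at 6 h and 2868 at 0 h. Libraries with the same number deviated together (r = 0.491 to 0.66 across genes), but no label gives the meaning of the number and each line has only 2 of them.

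Values near 0 changed sign. CCND1 at 2 h in SPT6-AID cells (0.00) was 0.01 with DESeq2 size factors, with no filter, with the line alone and by DESeq2, and 0.03 with a mean of at least 1 CPM, where its 6 h value was 0.01. With fly totals CCND3 was at -0.01 and -0.18 in SPT6-AID cells at 2 and 6 h, -0.08 and -0.15 in PAF1-AID cells and -0.03 in the difference at 6 h, and CDKN2B at -0.04 in PAF1-AID cells at 2 h. Fits that left out each library ran across 0 for CCND1 and CCND3 in SPT6-AID cells at 2 h (-0.05 to 0.04 and -0.05 to 0.29), for CDKN2B, CCND2 and CCND3 in PAF1-AID cells at 2 h (-0.79 to 1.65, -0.92 to 0.05 and -0.12 to 0.42), for CDKN1B, CDKN2C and CCND3 there at 6 h (-0.29 to 0.04, -0.28 to 0.16 and -0.03 to 0.51), and for CDKN1B and CCND3 in the difference at 6 h (-0.3 to 0.05 and -0.27 to 0.26).

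Counts over all genes also moved by more than 1.5 times, which bears on the background percentages. For SPT6-AID at 2 h (114) they were 8 with the line alone, 33 with fly totals, 66 with total counts, 509 by DESeq2 and 380 with no filter. For PAF1-AID at 2 h (31) they were 0 with the line alone, 2 with fly totals, 274 with no filter and 270 by DESeq2. For the difference at 6 h (778) they were 16 with fly totals, 223 with total counts and 457 with a mean of at least 1 CPM. In that comparison they were also 1330 with no filter, 1366 by DESeq2 and 4513 with the replicate block. Leaving out 1 library lowered the counts to as few as 7 for SPT6-AID at 2 h (without 2h replicate 1), 0 for PAF1-AID at 2 h (without 0h replicate 3 or 2h replicate 4), 3189 of 5230 for SPT6-AID 6 h against 0 h (without 6h replicate 2), 1119 of 3273 for SPT6-AID 6 h against 2 h (without 2h replicate 2), 362 of 2267 for PAF1-AID 6 h against 0 h (without 6h replicate 3), 0 of 182 for PAF1-AID 6 h against 2 h (without 2h or 6h replicate 3) and 30 of 778 for the difference at 6 h (without PAF1-AID 6h replicate 4). The cause was not tested. CCND2 is limited by its 9 to 25 counts in PAF1-AID libraries at 0 and 6 h.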
